A study of Homo sapiens with 12 samples.

Results

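Messenger RNA of 46 genes of nucleolar ribosome production was followed in THP-1 cells, a human monocytic leukemia line, exposed to chlorquinaldol, a chlorinated quinoline antimicrobial. The 46 genes were chosen by symbol, out of 62914 entries in the deposited tables, and all 46 were found and had enough reads to be tested. They were sorted by role into 8 genes of RNA polymerase I, 4 of box C/D particles, 5 of box H/ACA particles, 15 of small subunit assembly, 9 of large subunit assembly and 5 nucleolar proteins with several roles. There were 4 groups of 3 libraries: 1 μg/mL 3'-3'-cGAMP, untreated, 20 μM chlorquinaldol and 50 μM chlorquinaldol, all of the same line with no modification named, with the treatments given for 8 hours. The cGAMP group served as the positive control for innate antiviral signaling, and no vehicle is named for the untreated cells. Whether the 3 libraries of a group came from separate cultures is not stated, so the p-values measure only the spread between these libraries. Libraries were made from poly(A) RNA and held 17620929 to 19222607 estimated counts each. All 11 monocyte markers examined were detected, with summed levels of 1770.3 to 2001 CPM with cGAMP, 1612 to 1691 CPM in untreated cells, 1401 to 1554 CPM at 20 μM and 1492 to 1762 CPM at 50 μM. Epithelial, erythroid and fibroblast markers summed to under 1 CPM in every library. The sum of 6 T and NK cell markers, of which 1 was tested, was 10.1 to 11.7 CPM with cGAMP, 8.59 to 10.4 CPM in untreated cells, 10.5 to 11.9 CPM at 20 μM and 12.3 to 15.8 CPM at 50 μM. Among these 6, 1 was at 0 in all cGAMP libraries, 3 in untreated ones, 2 at 20 μM and 1 at 50 μM. CD3D, CD3E, CD3G and CD2 had at most 2 counts in any library, and NKG7 was the marker tested. The part of this sum in the results was not tested.

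In the nucleolus, RNA polymerase I transcribes the ribosomal DNA repeats into a long precursor that contains the 18S, 5.8S and 28S rRNAs. Box C/D particles guide 2'-O-methylation of that precursor and box H/ACA particles guide pseudouridylation, while large sets of assembly factors cut, fold and package it into the small and the large ribosomal subunit. Fast-growing cells such as leukemia lines keep this machinery high, and MYC is a well-known activator of many of its genes. The libraries hold poly(A) RNA, so they report on the genes of the machinery and not on rRNA itself.

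Levels below are CPM, read counts scaled to the library total with TMM factors, which allows a gene to be compared between libraries but not with another gene. Changes are log2 differences with their SE from 1 edgeR model of all 12 libraries, and a gene was called when its Benjamini-Hochberg adjusted p over 16628 genes was below 0.05. Both scales are relative to the other RNAs of a library. In bulk RNA, fewer cells that make a transcript and less of it per cell cannot be told apart.

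Most genes of this machinery had lower mRNA levels with chlorquinaldol than in untreated cells, for which no vehicle is named. At 20 μM, 42 of the 46 genes were lower than in untreated cells and 0 were higher, whereas 28.0% of all tested genes were lower and 27.1% higher. At 50 μM, 34 were lower and 0 higher, against 34.7% and 32.2% of all tested genes. Members higher at an unadjusted edgeR p below 0.05 numbered 0 at 20 μM and 1 at 50 μM, RRP1. DESeq2 called 0 and 3 higher, and limma on log2(FPKM + 1) called 0 and 0. The median log2 change of the 46 genes was -0.80 at 20 μM and -0.73 at 50 μM, while that of all tested genes was -0.0016 and -0.034. A fall of at least 2-fold was called for 17 members at 20 μM, where 6.18% of all tested genes fell that far, and for 17 members at 50 μM, where 12.8% did. Both comparisons use the same 3 untreated libraries. The members were chosen with earlier results of these data known, so their contrast with all tested genes is a description. For the 42 genes called at 20 μM, all 3 treated libraries lay below all 3 untreated ones, a separation downward that 31.5% of all tested genes showed. At 50 μM, 36 members separated downward and 1 upward, against 36.8% and 33.8% of all tested genes.

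**Figure D1:**
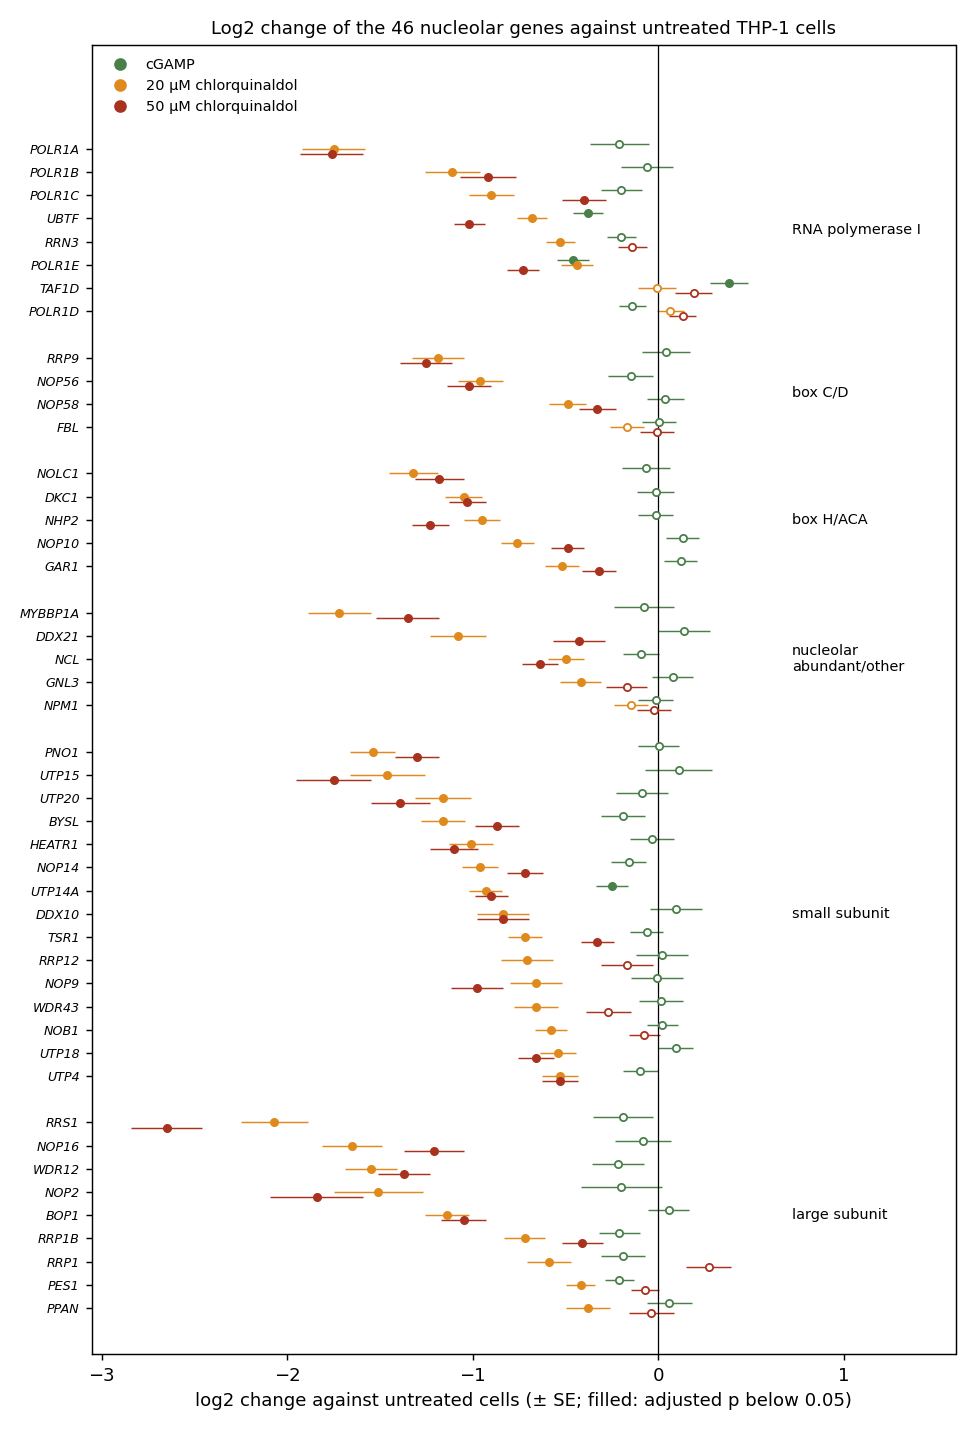
Log2 change (x axis, ± SE of the edgeR fit, 3 libraries a group) of each of the 46 genes against untreated cells, ordered by role and, within a role, by the change at 20 μM; green is cGAMP, orange 20 μM and red 50 μM chlorquinaldol, and filled points had an adjusted p below 0.05. Orange and red points lie left of 0 for most genes, down to -2.65 for RRS1 at 50 μM, while green points lie between -0.46 and 0.38.

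Summed over the 46 genes, the libraries held 4349, 4223 and 4062 CPM with cGAMP, 4272, 4401 and 4356 CPM in untreated cells, 2673, 3199.7 and 3104 CPM at 20 μM and 3357, 3129 and 3128 CPM at 50 μM. All 6 chlorquinaldol libraries were below all 6 others. In these sums, which are not corrected for gene length, a large part came from NCL and NPM1. Without them, the sums were 2469, 2454 and 2404 CPM with cGAMP, 2514, 2566 and 2452 CPM in untreated cells, 1298, 1596 and 1622 CPM at 20 μM and 1804, 1693 and 1589 CPM at 50 μM.

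Replicate 1 of the 20 μM group stood apart from the other two: it was the lowest of its group for 40 of the 46 members, and the lowest for 36.2% of all tested genes. Without it, 40 members were called lower at 20 μM in place of 42, GNL3 and PPAN being the 2 lost. In the 50 μM group, replicate 3 was the lowest for 30 members and for 37.6% of all tested genes, and without it 30 members were called lower at 50 μM in place of 34.

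**Figure D2:**
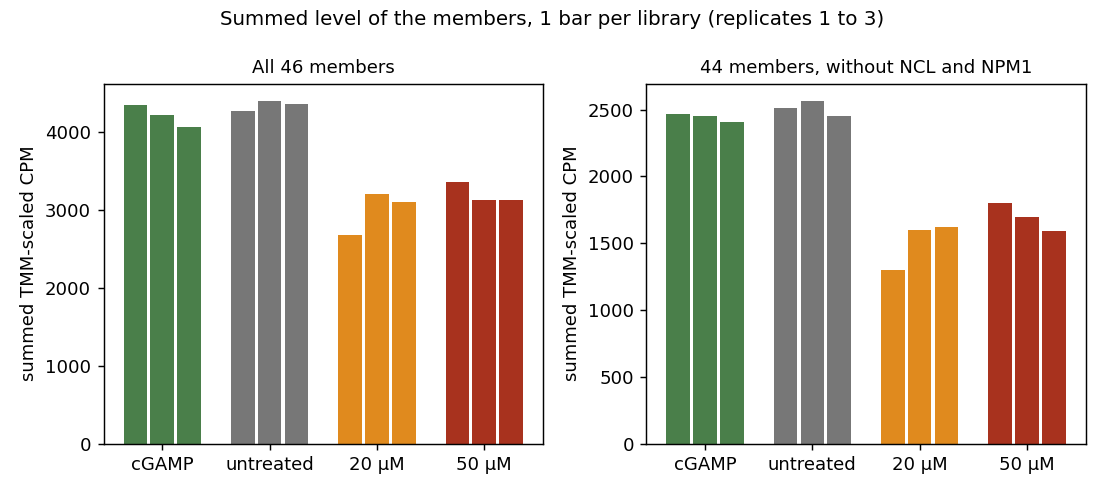
Summed TMM-scaled CPM (y axis, from 0) of all 46 genes and of the 44 genes other than NCL and NPM1, with 1 bar per library in replicate order and groups along the x axis. The 6 chlorquinaldol bars are below the 6 others in both panels, and the first 20 μM bar is the lowest of all, at 2673 CPM and 1298 CPM.

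Within RNA polymerase I and its factors, 6 of 8 genes were called lower at 20 μM and 5 at 50 μM. POLR1A, the largest subunit and part of the catalytic centre, had 56.9, 58.7 and 61.2 CPM with cGAMP, 74.1, 71.6 and 59.3 CPM in untreated cells, 14.2, 20.7 and 25.9 CPM at 20 μM and 24.6, 20.4 and 15.5 CPM at 50 μM. All 6 chlorquinaldol libraries were below all 6 others. The log2 change was -1.75 ± 0.17 at 20 μM (edgeR adjusted p = 1.83e-07) and -1.76 ± 0.17 at 50 μM (edgeR adjusted p = 6.97e-08). POLR1B, the second largest subunit, changed by -1.11 ± 0.15 and -0.92 ± 0.15 on the log2 scale at 20 and 50 μM. POLR1C, shared with RNA polymerase III, changed by -0.90 ± 0.12 and -0.40 ± 0.12, and its call at 50 μM was lost without replicate 1 or without replicate 3 of that group. POLR1E, a subunit of the initiation heterodimer, was also lower, with log2 changes of -0.44 ± 0.085 and -0.73 ± 0.086.

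UBTF, which binds along the rDNA promoter and gene body, had 70.9, 72.2 and 74.4 CPM with cGAMP, 97.1, 96.0 and 90.3 CPM in untreated cells, 59.7, 57.6 and 60.0 CPM at 20 μM and 52.2, 46.9 and 40.6 CPM at 50 μM. The 4 groups did not overlap. UBTF was called lower with cGAMP (log2 -0.38 ± 0.081, edgeR adjusted p = 0.0025), at 20 μM (-0.68 ± 0.082) and at 50 μM (-1.02 ± 0.083). RRN3, the factor that makes the polymerase competent to initiate, was lower at 20 μM (-0.53 ± 0.078) and not called at 50 μM (-0.14 ± 0.078, edgeR adjusted p = 0.13). Its 5 annotated pseudogenes together held 18.1% as many counts as RRN3, so its reads may be shared with them.

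POLR1D, another subunit shared with RNA polymerase III, and TAF1D, a subunit of the promoter selectivity factor SL1, were not called at either dose. POLR1D had 85.4, 89.2 and 93.2 CPM with cGAMP, 93.1, 98.2 and 104 CPM in untreated cells, 104, 108 and 96.8 CPM at 20 μM and 107, 107 and 109 CPM at 50 μM. All 3 libraries at 50 μM were above the untreated ones by a small margin (log2 0.13 ± 0.072, edgeR adjusted p = 0.109). TAF1D had 107, 98.4 and 89.4 CPM with cGAMP, 70.7, 76.3 and 79.7 CPM in untreated cells, 64.9, 85.9 and 74.7 CPM at 20 μM and 88.7, 77.5 and 93.1 CPM at 50 μM. Here the cGAMP libraries were above the untreated ones and the chlorquinaldol libraries overlapped them.

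**Figure D3:**
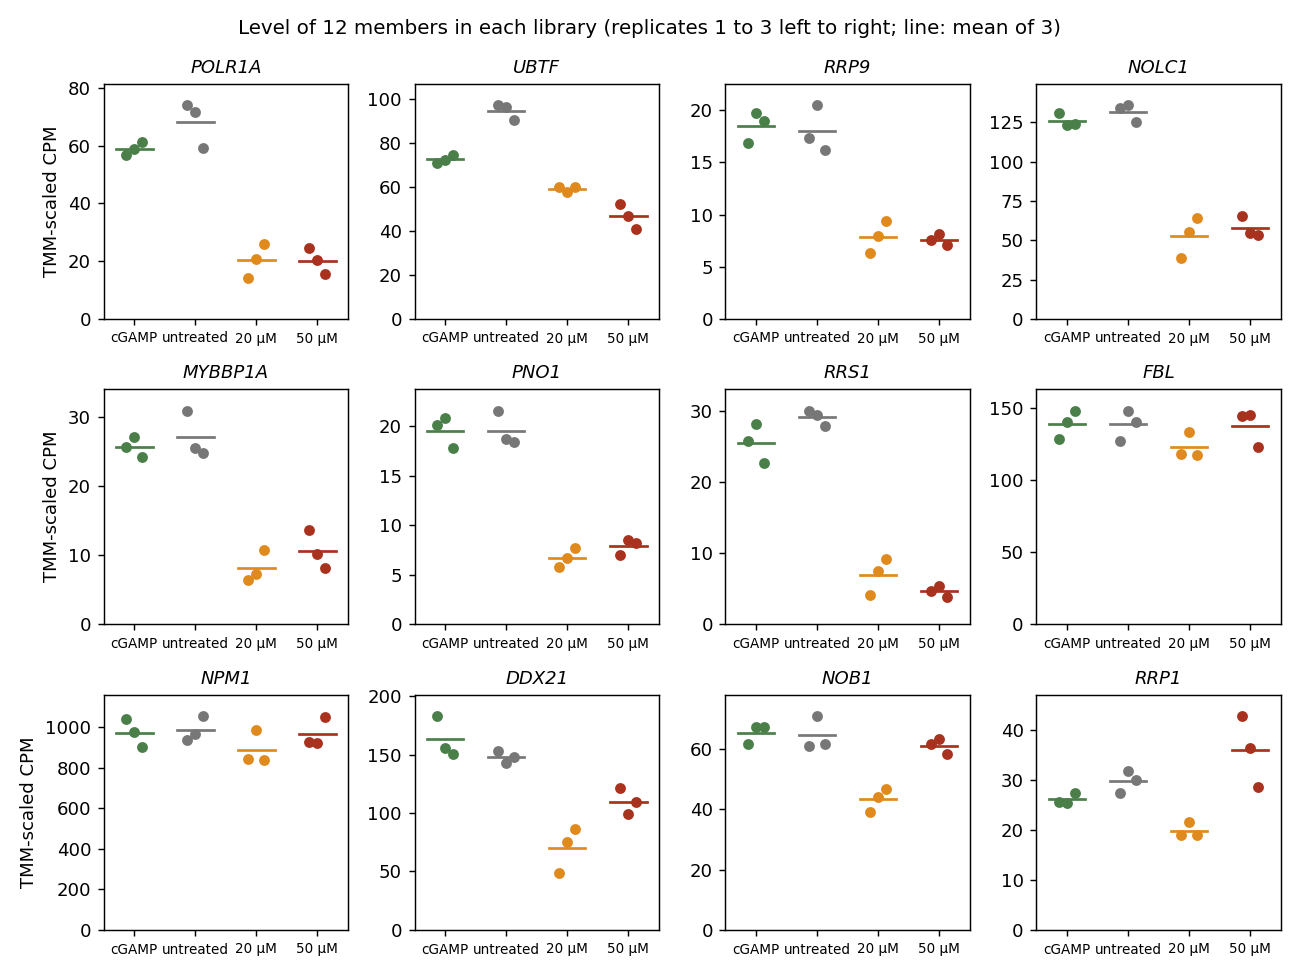
TMM-scaled CPM (y axes, from 0) of 12 of the genes in every library, with the groups cGAMP, untreated, 20 μM and 50 μM along the x axis, replicates 1 to 3 from left to right and a line at the mean of 3. POLR1A, RRP9, NOLC1, MYBBP1A, PNO1 and RRS1 are low at both doses, FBL and NPM1 overlap between all groups, and NOB1 and RRP1 are low at 20 μM only.

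Among the box C/D proteins, 3 of 4 were called lower at each dose. RRP9, which binds the U3 snoRNA needed for the first cuts of the precursor, had 16.9, 19.7 and 19.0 CPM with cGAMP, 17.3, 20.5 and 16.2 CPM in untreated cells, 6.27, 7.97 and 9.4 CPM at 20 μM and 7.54, 8.17 and 7.06 CPM at 50 μM. No chlorquinaldol library came near the others, and the log2 change was -1.19 ± 0.14 at 20 μM and -1.25 ± 0.14 at 50 μM (edgeR adjusted p = 1.15e-06 and 3.49e-07). The paired core proteins NOP56 (-0.96 ± 0.12 and -1.02 ± 0.12) and NOP58 (-0.49 ± 0.10 and -0.33 ± 0.10) were lower too. The NOP58 call at 50 μM was lost without replicate 1 or without replicate 2 of that group.

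FBL, the methyltransferase of the same particle, had 128, 140.3 and 148 CPM with cGAMP, 127, 148 and 140 CPM in untreated cells, 118, 133 and 117 CPM at 20 μM and 144, 145 and 123 CPM at 50 μM. All groups overlapped. Its log2 change was -0.17 ± 0.09 at 20 μM and -0.008 ± 0.09 at 50 μM, with edgeR adjusted p = 0.111 and 0.944.

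All 5 box H/ACA genes were called lower at both doses. NOLC1, a phosphoprotein that binds both particle classes, had 131, 123 and 124 CPM with cGAMP, 134, 136 and 125 CPM in untreated cells, 38.6, 55.4 and 64.4 CPM at 20 μM and 65.6, 54.8 and 53.4 CPM at 50 μM, a log2 change of -1.32 ± 0.13 and -1.18 ± 0.13. DKC1, the pseudouridine synthase, fell to 32.3, 42.2 and 47.1 CPM at 20 μM, against 83.6, 84.6 and 83.1 CPM in untreated cells (log2 -1.05 ± 0.10). The core protein NHP2 had 79.5, 91.9 and 82.6 CPM with cGAMP, 80.9, 92.2 and 83.6 CPM in untreated cells, 36.8, 48.1 and 48.3 CPM at 20 μM and 35.8, 38.3 and 35.3 CPM at 50 μM. It was low in all 6 chlorquinaldol libraries, by -0.95 ± 0.099 at 20 μM and -1.23 ± 0.10 at 50 μM. GAR1, which completes the particle, had the smallest fall of the 5: 18.9, 20.0 and 17.9 CPM with cGAMP, 16.1, 17.9 and 18.2 CPM in untreated cells, 11.5, 12.6 and 12.3 CPM at 20 μM and 14.2, 14.0 and 13.7 CPM at 50 μM. Its libraries still separated from the untreated ones at both doses, with log2 changes of -0.52 ± 0.092 and -0.32 ± 0.091. Its call at 50 μM was lost without replicate 3 of that group and with no filter on low counts. NOP10 changed by -0.76 ± 0.089 and -0.49 ± 0.089.

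Of the nucleolar proteins with several roles, 4 of 5 were lower at 20 μM and 3 at 50 μM. MYBBP1A, a binding partner of MYB that also takes part in rRNA processing, had 25.7, 27.1 and 24.2 CPM with cGAMP, 30.9, 25.5 and 24.8 CPM in untreated cells, 6.47, 7.34 and 10.8 CPM at 20 μM and 13.6, 10.1 and 8.21 CPM at 50 μM. The highest chlorquinaldol library was below every untreated library, and the log2 changes were -1.72 ± 0.17 and -1.35 ± 0.17 (edgeR adjusted p = 3.1e-07 and 1.9e-06). DDX21, an RNA helicase that links RNA polymerase I and II output, changed by -1.08 ± 0.15 at 20 μM and -0.43 ± 0.14 at 50 μM. The call at 50 μM was lost without replicate 2 or without replicate 3 of that group. NCL, or nucleolin, was lower at both doses (-0.50 ± 0.097 and -0.64 ± 0.097), and the GTP-binding protein GNL3, or nucleostemin, was lower at 20 μM (-0.42 ± 0.11) and not called at 50 μM (-0.17 ± 0.11).

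NPM1, the histone and ribosome chaperone often mutated in acute myeloid leukemia, had 1041, 977 and 899.5 CPM with cGAMP, 934, 963 and 1054 CPM in untreated cells, 840.4, 984 and 839 CPM at 20 μM and 928, 919 and 1051 CPM at 50 μM. In CPM the groups overlapped throughout. In FPKM NPM1 had 982.55, 952.59 and 990.88 in untreated cells. It had 807.95, 929.43 and 810.45 FPKM at 20 μM and 798.63, 808.76 and 919.87 FPKM at 50 μM. On that scale all chlorquinaldol libraries lay below all untreated ones, so the overlap depends on the scaling. At each dose NPM1 was called against untreated cells in 0 of 22 alternative analyses. The log2 change was -0.15 ± 0.092 at 20 μM (edgeR adjusted p = 0.188) and -0.026 ± 0.092 at 50 μM (edgeR adjusted p = 0.817). Its 49 annotated pseudogenes held 0.489% as many counts as NPM1.

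All 15 small subunit factors were lower at 20 μM and 12 at 50 μM. PNO1, which in yeast holds the endonuclease NOB1 in check on late small subunit precursors, had 20.1, 20.8 and 17.8 CPM with cGAMP, 21.6, 18.7 and 18.4 CPM in untreated cells, 5.8, 6.72 and 7.7 CPM at 20 μM and 7.02, 8.5 and 8.21 CPM at 50 μM. Its log2 change of -1.54 ± 0.12 was the largest fall of the 15 at 20 μM (edgeR adjusted p = 2.17e-08), and it was -1.30 ± 0.12 at 50 μM. UTP15, a subunit of the complex that loads first on the nascent precursor, had 15.6, 14.0 and 13.5 CPM with cGAMP, 15.0, 13.1 and 12 CPM in untreated cells, 2.93, 5.12 and 6.5 CPM at 20 μM and 4.81, 3.89 and 3.23 CPM at 50 μM. The change of -1.75 ± 0.20 at 50 μM was the largest fall of the 15 at that dose, and it was -1.46 ± 0.20 at 20 μM.

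UTP4, a partner of UTP15 in the same complex, had the smallest fall of the 15 at 20 μM. Its level was 46.2, 45.9 and 45.3 CPM with cGAMP, 47.9, 50.4 and 48.8 CPM in untreated cells, 29.3, 36.8 and 35.9 CPM at 20 μM and 38.4, 32.8 and 30.7 CPM at 50 μM, a log2 change of -0.53 ± 0.095 and -0.53 ± 0.096. NOB1, which cuts the 3' end of 18S rRNA, had 61.5, 67.4 and 67.2 CPM with cGAMP, 60.9, 70.9 and 61.6 CPM in untreated cells, 39.1, 44.0 and 46.7 CPM at 20 μM and 61.6, 63.2 and 58.4 CPM at 50 μM. In CPM only the 20 μM libraries stood apart, and NOB1 was called there (-0.58 ± 0.085) and not at 50 μM (-0.077 ± 0.084, edgeR adjusted p = 0.432). In FPKM its 50 μM libraries (38.78, 42.59 and 40.39) also lay below the untreated ones (45.69, 51.66 and 44.98). NOB1 was called lower at 50 μM in 2 of 22 alternative analyses, both limma on FPKM.

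Among the other processome proteins, HEATR1 changed by -1.01 ± 0.12 and -1.10 ± 0.13 at 20 and 50 μM, UTP20 by -1.16 ± 0.15 and -1.39 ± 0.16, and BYSL by -1.16 ± 0.12 and -0.87 ± 0.12. NOP14, UTP14A, UTP18, NOP9 and the helicase DDX10 were lower at both doses, with log2 changes between -0.98 and -0.54. The export factor RRP12 (-0.71 ± 0.14 and -0.17 ± 0.14) and WDR43 (-0.66 ± 0.12 and -0.27 ± 0.12) were called at 20 μM and not at 50 μM. The 50 μM libraries of RRP12 overlapped the untreated ones (edgeR adjusted p = 0.303). Those of WDR43 all lay below the untreated ones, and its edgeR adjusted p of 0.0545 was close to the threshold. TSR1, a late factor, was called at both (-0.72 ± 0.091 and -0.33 ± 0.09), though at 50 μM not without replicate 2.

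All 9 large subunit factors were lower at 20 μM and 6 at 50 μM. RRS1, which brings the 5S particle to the pre-60S subunit, had the largest fall of all 46 genes at both doses. It had 25.7, 28.1 and 22.7 CPM with cGAMP, 30.0, 29.4 and 27.8 CPM in untreated cells, 4.16, 7.51 and 9.15 CPM at 20 μM and 4.64, 5.37 and 3.89 CPM at 50 μM. RRS1 was 4.19-fold lower at 20 μM (log2 -2.07 ± 0.18, edgeR adjusted p = 6.01e-08) and 6.27-fold lower at 50 μM (log2 -2.65 ± 0.19, edgeR adjusted p = 1.84e-09). NOP16 (-1.65 ± 0.16 and -1.21 ± 0.16), WDR12 (-1.55 ± 0.14 and -1.37 ± 0.14) and the 28S methyltransferase NOP2 (-1.51 ± 0.24 and -1.84 ± 0.25) followed.

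BOP1, WDR12 and PES1 form the PeBoW complex, which is needed for 28S and 5.8S maturation. BOP1 and WDR12 were more than 2-fold lower at both doses, with -1.14 ± 0.12 and -1.05 ± 0.12 for BOP1. PES1 was lower at 20 μM by a smaller amount (-0.42 ± 0.077) and not called at 50 μM (-0.074 ± 0.076).

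RRP1B, a nucleolar relative of RRP1, changed by -0.72 ± 0.11 and -0.41 ± 0.11, a call that was lost at 50 μM without replicate 3. PPAN, a large subunit factor of the Brix family, had the smallest change of this role at both doses. It had 29, 31.3 and 30.7 CPM with cGAMP, 26.9, 32.5 and 27.9 CPM in untreated cells, 18.8, 22.8 and 25.4 CPM at 20 μM and 32.9, 28.3 and 24.0 CPM at 50 μM. Its call at 20 μM (-0.38 ± 0.12, edgeR adjusted p = 0.0129) was lost in 6 of 22 alternative analyses. These were without untreated replicate 2, without 20 μM replicate 1, at an adjusted p below 0.01, and in all settings of limma on FPKM. Its mean was 21.3 FPKM in untreated cells and 20.7 FPKM at 20 μM. Its exons overlap those of the PPAN-P2RY11 readthrough gene on the same strand over 56.02% of their length. RRP1, a nucleolar pre-rRNA processing protein, had 25.5, 25.3 and 27.4 CPM with cGAMP, 27.4, 31.8 and 30.0 CPM in untreated cells, 19.0, 21.6 and 18.9 CPM at 20 μM and 42.7, 36.4 and 28.5 CPM at 50 μM. It was lower at 20 μM (-0.59 ± 0.12), while at 50 μM the libraries lay around and above the untreated ones (0.27 ± 0.12, edgeR adjusted p = 0.0506).

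Reads of some members may be mixed with those of a neighbour whose exons overlap, and the counting is not stated to use strand. On the opposite strand, CIDEB overlaps 32.39% of the exon length of NOP9, RMND5B 27.42% of NHP2, LGALS8 23.15% of HEATR1, SRR 20.67% of TSR1, AC092115.3 20.25% of NOB1 and NOP14-AS1 17.1% of NOP14. On the same strand, where the strand setting does not matter, AC006064.6 overlaps 54.41% of NOP2. Over all libraries AC006064.6 held 278.8 counts against 2556.5 for NOP2. LGALS8 held 48778 against 15530.5 for HEATR1, while each other neighbour named so far held fewer counts than its member. Some opposite-strand neighbours with smaller overlaps also held more counts than their member. For POLR1C (4798.9 counts) these were XPO5 (24675.8, 6.27% of the exon length) and YIPF3 (14941, 2.32%). For NOP16 (4510) it was HIGD2A (11920.2, 7.93%) and for UTP15 (2085.3) ANKRA2 (2841.8, 3.86%).

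The 2 doses were also compared with each other. From 20 to 50 μM, 12 of the 46 genes were higher and 4 lower, against 19.1% and 19.0% of all tested genes, and the median log2 change was 0.16. Those higher at 50 than at 20 μM were RRP1 (0.86 ± 0.12), DDX21 (0.65 ± 0.15), RRP12 (0.54 ± 0.14), NOB1 (0.50 ± 0.085), POLR1C (0.50 ± 0.12), RRN3, TSR1, WDR43, PES1, PPAN, RRP1B and NOP10. DDX21 had 153, 143 and 148 CPM in untreated cells, 48.8, 74.8 and 86.0 CPM at 20 μM and 121, 99.3 and 109 CPM at 50 μM. RRP1 was the member with the largest step, and all 3 of its 50 μM libraries were above all 3 at 20 μM.

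RRS1 (-0.58 ± 0.21), UBTF (-0.34 ± 0.084), POLR1E (-0.29 ± 0.087) and NHP2 (-0.28 ± 0.10) were lower at 50 than at 20 μM. The libraries of RRS1 and NHP2, and of RRP12 and PPAN among the higher genes, overlapped between the doses. These counts leaned on single libraries: without replicate 1 of the 20 μM group 8 genes were higher and 7 lower, and without replicate 3 of the 50 μM group 17 were higher and 1 lower. The calls of WDR43, PPAN, RRP1B, NOP10, RRS1, POLR1E and NHP2 were each lost when 1 library of a chlorquinaldol group was left out. Of the other calls, those of POLR1C, RRN3, RRP12 and TSR1 were lost in 3 settings of limma on FPKM. Those of DDX21 and PES1 were lost in 1. The 4 box C/D genes had log2 changes of -0.061 to 0.17 between the doses and were not called. The libraries of the 2 doses separated upward for 12 members and downward for 2, against 22.1% and 22.8% of all tested genes.

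**Figure D4:**
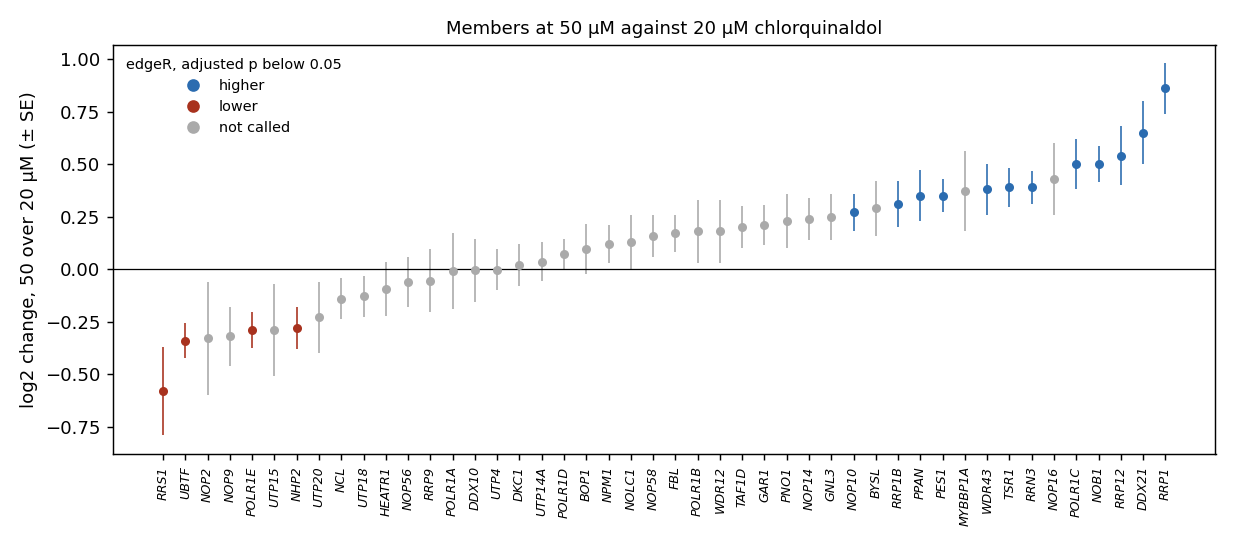
Log2 change from 20 to 50 μM chlorquinaldol (y axis, ± SE of the edgeR fit, 3 libraries a dose) of the 46 genes along the x axis, sorted by size; blue genes were called higher and red genes lower at 50 μM at an adjusted p below 0.05. The values run from -0.58 for RRS1 to 0.86 for RRP1, with 12 blue and 4 red points.

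With cGAMP, 1 of the 46 genes was higher than in untreated cells and 3 were lower, against 11.6% and 11.8% of all tested genes. TAF1D was the one higher (0.38 ± 0.10, edgeR adjusted p = 0.012), and POLR1E (-0.46 ± 0.085), UBTF (-0.38 ± 0.081) and UTP14A (-0.25 ± 0.086) were lower. POLR1E had 34.8, 36.0 and 36.4 CPM with cGAMP, against 48.1, 51.6 and 47.7 CPM in untreated cells. The UTP14A call had an adjusted p of 0.0476 in edgeR and was lost in 19 of 22 alternative analyses, and that of TAF1D was lost without cGAMP replicate 1 or without untreated replicate 1. The cGAMP libraries separated downward from the untreated ones for 10 members and upward for 1, against 25.4% and 18.6% of all tested genes. Tested directly against cGAMP, 50 μM chlorquinaldol gave 33 members lower and 2 higher, POLR1D and RRP1, where 34.7% and 32.0% of all tested genes were called.

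Apart from the summed CPM above, levels of different genes were compared only as FPKM, which corrects for length. In untreated cells NPM1 was the highest at 975 ± 20.1 FPKM (SD, n = 3), followed by NOP10 at 399 ± 12.4, NCL at 380.4 ± 13.5, FBL at 209 ± 12.7 and NHP2 at 189.9 ± 14.9 FPKM. NOP10 and NCL overlapped each other, as did FBL and NHP2. The lowest were MYBBP1A at 7.91 ± 1.6, UTP15 at 6.75 ± 0.87, RRP1B at 5.92 ± 0.712 and UTP20 at 2.39 ± 0.159 FPKM. Genes of low FPKM tended to have the larger falls: across the 46 genes, the Spearman correlation between FPKM in cGAMP libraries, which enter neither change, and log2 change was 0.50 at 20 μM and 0.42 at 50 μM. This is a description across genes of the same libraries, and genes are not independent replicates.

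Of the 46 genes, 10 carry snoRNA or scaRNA genes inside them on the same strand, 36 in all, among them 8 in TAF1D, 6 in GNL3 and 5 in NOP56. All 36 are listed in the tables and 0 reached 10 counts over the 12 libraries, which were made from poly(A) RNA. The guide RNAs themselves were therefore not measured here.

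Promoters of 39 of the 46 genes are in the RefSeq table used here, which covers 250 bases before to 50 bases after each start on GRCh38.p14. The letters CACGTG, the E-box that MYC and its partner MAX are known to bind and which reads alike on both strands, occurred in 17 of the 39 (43.6%), in 12.2% of 11490 tested genes and in 8.77% of all 27305 genes of that table. Of 19 matches in the 17 promoters, 16 began within 40 bases of the start site. Match positions were not counted for other tested genes, so no share stands beside this. For GAR1 and UTP4, the bases checked after the start of the matched window were not found in the gene's GENCODE transcripts. The ETS-type letters CCGGAAG occurred on either strand in 35.9% of the members and 21.6% of tested genes, the GC box GGGCGG in 82.1% and 74.5%, and the metal response core TGCNCNC in 69.2% and 69.7%. A match is not a measured binding site. The E-box was in 16 of the 35 members lower at 20 μM with a promoter entry and in 1 of the 4 others, FBL. A group of 4 is too small for a comparison. At 50 μM, WDR43, GNL3, PES1 and FBL with an E-box were not called. Nor were POLR1D, RRN3, TAF1D, NPM1, RRP1, NOB1 and PPAN, which have a promoter entry without the E-box. Whether the E-box goes with the fall was not tested.

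The 120 bases before the start of 4 genes that fell at both doses are shown as the strand of the gene reads them, 3 with an E-box, in capitals, and POLR1A, with the second largest fall at 20 μM and no E-box in its window. UTP20 lies on chr12:101279985-101280104 (plus strand), NOP10 on chr15:34343137-34343256 (minus strand), UTP18 on chr17:51260426-51260545 (plus strand) and POLR1A on chr2:86105887-86106006 (minus strand), all GRCh38.p14.
UTP20: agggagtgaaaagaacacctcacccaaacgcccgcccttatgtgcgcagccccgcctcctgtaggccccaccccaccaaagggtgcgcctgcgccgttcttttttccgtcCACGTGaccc
NOP10: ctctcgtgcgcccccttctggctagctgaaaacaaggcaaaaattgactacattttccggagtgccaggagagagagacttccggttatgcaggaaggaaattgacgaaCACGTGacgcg
UTP18: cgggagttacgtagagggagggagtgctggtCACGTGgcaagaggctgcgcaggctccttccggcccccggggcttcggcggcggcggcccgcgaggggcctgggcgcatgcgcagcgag
POLR1A: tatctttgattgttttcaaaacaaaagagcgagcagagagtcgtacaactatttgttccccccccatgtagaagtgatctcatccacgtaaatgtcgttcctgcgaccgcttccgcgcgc

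MYC mRNA was read beside the members. It had 153, 157 and 151 CPM with cGAMP, 172, 159.9 and 155 CPM in untreated cells, 62.8, 79.6 and 83.8 CPM at 20 μM and 99.6, 120.3 and 90.0 CPM at 50 μM. All chlorquinaldol libraries were below all others, with a log2 change of -1.11 ± 0.11 at 20 μM and -0.65 ± 0.11 at 50 μM (edgeR adjusted p = 2.32e-07 and 4.05e-05). Its part in the change of the members was not tested. Of 10 genes of the MYC network, 5 were lower and 2 higher at 20 μM, and 6 lower and 2 higher at 50 μM. Among all tested genes, 28.0% were lower and 27.1% higher at 20 μM, and 34.7% and 32.2% at 50 μM. The largest rise and fall of the MYC network at 50 μM were those of 2 MAX-binding antagonists of MYC. MXD1 was higher (1.44 ± 0.13 and 2.35 ± 0.13) and MXD3 lower (-1.23 ± 0.12 and -2.69 ± 0.14) at 20 and 50 μM.

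Genes of the same pathway outside the 46 were counted by the same rule. The shares of all tested genes were 28.0% lower and 27.1% higher at 20 μM, and 34.7% and 32.2% at 50 μM. Of 49 other large subunit factors, 38 were lower and 3 higher at 20 μM and 35 lower and 6 higher at 50 μM, with medians of -0.64 and -0.56. The largest fall at 50 μM was that of URB2 (-1.88 ± 0.17) and the largest rise that of RSL24D1 (0.72 ± 0.11). Of 44 other small subunit factors, 28 were lower and 1 higher at 20 μM and 25 lower and 3 higher at 50 μM, with NOL6 (-1.73 ± 0.13) and the kinase RIOK3 (1.46 ± 0.085) at the ends at 50 μM. Of 13 other RNA polymerase I genes, 7 were lower and 3 higher at 20 μM and 8 lower and 1 higher at 50 μM. POLR1G, another subunit of the polymerase, was the lowest of them (-1.54 ± 0.14), and POLR2H, which all 3 nuclear polymerases share, the one higher (0.50 ± 0.077).

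Of 11 snoRNP assembly genes, 8 and 7 were lower at the low and high dose and 2 and 1 higher, with RUVBL1 (-1.01 ± 0.18) and RPAP3 (0.32 ± 0.089) at the ends at 50 μM. Of 22 RNA polymerase III genes, 14 and 15 were lower and 2 and 5 higher. POLR3B, its second largest subunit, was lowest at 50 μM (-1.26 ± 0.19) and POLR3G highest (1.27 ± 0.20). In the RNA exosome, which trims rRNA ends, 8 of 14 were lower at each dose, and 2 were higher at 20 μM and 1 at 50 μM. EXOSC6 was the lowest at 50 μM (-1.40 ± 0.091) and C1D the one higher (0.30 ± 0.10). Beside these lists, 28.0% of all tested genes were lower and 27.1% higher at 20 μM, and 34.7% and 32.2% at 50 μM.

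The 79 cytosolic ribosomal protein genes encode the proteins that the assembly factors put in place. At 20 μM 8 were lower and 71 not called, and at 50 μM 10 were lower, 3 higher and 66 not called, with medians of -0.08 and -0.019 where the 46 members had -0.80 and -0.73. The most extreme at 50 μM were RPS26 (-0.63 ± 0.10) and RPL10 (0.39 ± 0.084). For all tested genes the shares were 28.0% lower and 27.1% higher at 20 μM, and 34.7% and 32.2% at 50 μM. Ribosomal protein genes have many processed pseudogenes, with which their reads may be shared.

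**Figure D5:**
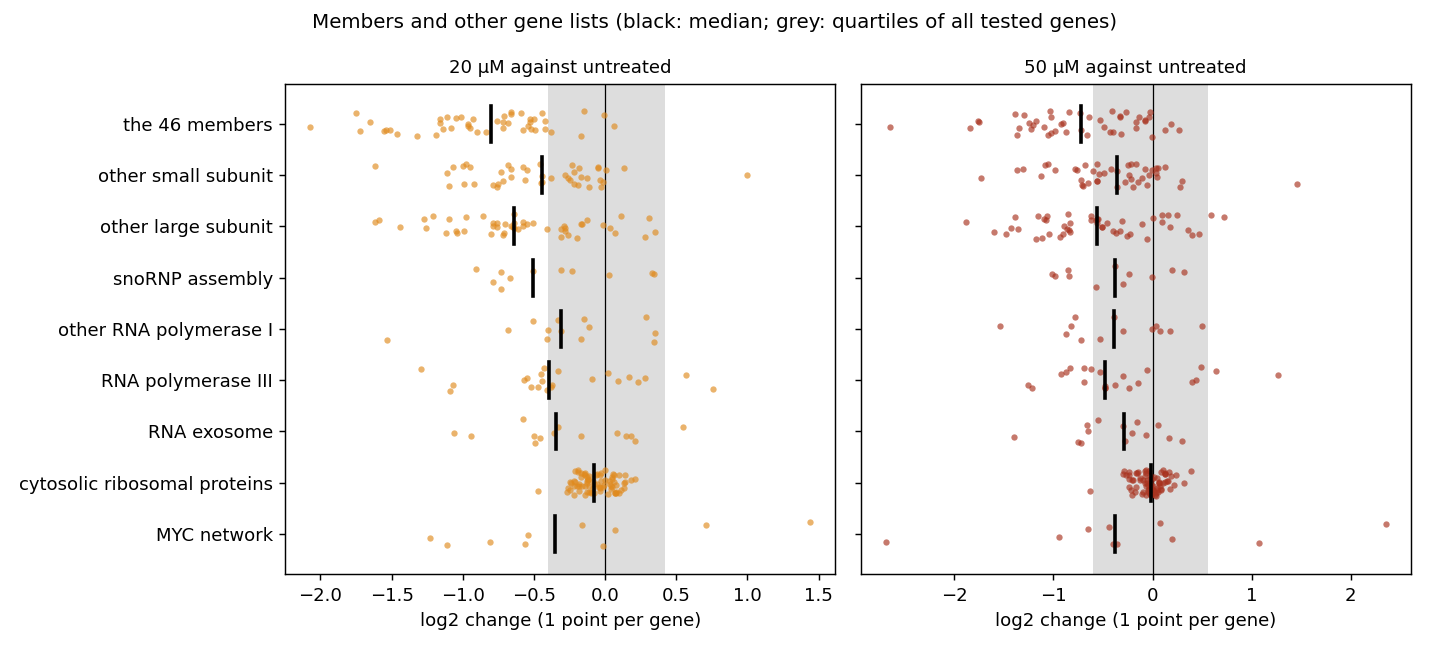
Log2 change (x axis) of each gene, 1 point per gene, for the 46 members and 8 other lists at 20 μM (left) and 50 μM (right) against untreated cells; black marks are medians and the grey band runs from the lower to the upper quartile of all tested genes. The median of the members, -0.80 and -0.73, lies outside the band at both doses, while the 79 ribosomal protein genes lie close to 0.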

How the data were processed

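The deposited tables held estimated counts and FPKM per gene, made with RSEM against GRCh38 per the submitters' processing notes. The RSEM version, annotation, strand setting and read filters are not given in the sources used here. The authors' DESeq2 1.26.0 tests, named in the same notes, were not used. Of the counts above 0, 42.3% were not whole, and counts were rounded before testing. Unannotated transcripts (326 entries, 0.182% to 0.29% of counts) were left out.

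Genes of low count were removed by filterByExpr at a minimum of 10, TMM factors (0.9048 to 1.0606) were computed, and edgeR 4.0.16 in R 4.3.3 gave quasi-likelihood F tests from 1 model of 4 groups (8 residual degrees of freedom). Adjusted p-values are Benjamini-Hochberg values over 16628 genes. With 3 against 3, an exact permutation test of 1 gene cannot give p below 0.1. Alternatives were DESeq2 1.42.0, limma 3.58.1 on log2 FPKM with a pseudocount of 1 or 0.1, other scalings, filters and thresholds, a replicate block and each library left out. Libraries of the same replicate number did not deviate together. Gene positions are from GENCODE on GRCh38.

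The members and lists were chosen with earlier results of these data known. Values in every library are given for the members with the largest and smallest change of each role at each dose, and for some others chosen after their values were seen. Outside the members, the largest called rise and fall of each list at 50 μM and MYC are named. MDN1 is not analysed here. A marker list that would name an item not reported here is left out.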

Additional observations from a re-analysis of the deposited data

How the results depend on the processing

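Against untreated cells, members called lower numbered 41 to 42 at 20 μM and 33 to 38 at 50 μM in the 10 other settings, and 40 to 42 and 30 to 34 with 1 library left out. At 50 μM, limma on FPKM plus 1 or 0.1 also called NOB1, RRN3, PES1 and GNL3 lower. GNL3 was also called lower there with limma on all FPKM genes. WDR43 was called lower at 50 μM with upper-quartile factors and with only the groups compared. In the 4 comparisons other than 50 μM against cGAMP, no call of a member turned to the opposite direction in any of the 22 alternatives. Members higher at 50 μM numbered 3 with DESeq2, 3 with RLE factors, 2 with no filter, 1 with only the groups compared, and 0 to 3 with 1 library left out (RRP1, POLR1D, TAF1D), where the edgeR analysis gave 0. The comparison of the doses was the least stable. Its 12 higher members became 5 and 5 with limma on FPKM plus 1 or 0.1, 2 with limma on all FPKM genes, and 8 to 17 with 1 library left out. Its 4 lower members became 1 with only the groups compared, 1 at an adjusted p below 0.01, and 1 to 7 with 1 library left out. Of all genes called there, 49.9% were lower with edgeR and 66.7% with limma on FPKM. For cGAMP, the 1 higher member became 0 with limma on all FPKM genes and 0 at the 0.01 threshold, and 0 to 1 with 1 library left out. The 3 lower became 5 with upper-quartile factors and 2 with 1 library left out. All genes called with cGAMP, 3875 with edgeR, numbered 2038 with limma on all FPKM genes, 2203 at the 0.01 threshold and 2676 to 3926 with 1 library left out. For 50 μM against cGAMP, alternatives added after seeing the data gave 30 to 34 members lower and 2 to 3 higher. The cause of these shifts was not tested.

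Correlations of deviations between libraries of the same replicate number ran from -0.113 to 0.067, and between those of different numbers from -0.091 to 0.129. They gave no sign of pairing, but with 3 libraries a group they cannot exclude shared cultures or batches. With a replicate block 42 and 34 members were lower at 20 and 50 μM. Between the doses 12 were then higher and 4 lower, and with cGAMP 1 was higher and 3 lower. The SE of the log2 step between the doses was 0.22 for UTP15 and 0.27 for NOP2. Their steps of -0.29 and -0.33 were larger than these SE and still not called, so an SE is not a limit of detection.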
